A study of Mus musculus with 24 samples.

Results

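The genes described here are those of IgA transport and of plasma cell differentiation and survival that the panel measured in the ileum of antibiotic-exposed mice. They were chosen by name and known role, and 9 of the 547 genes in the table met the rule: Pigr, Fcamr, Prdm1, Irf4, Xbp1, Tnfsf13b, Tnfrsf13b, Tnfrsf13c and Tnfrsf17. Expression was counted with the NanoString nCounter mouse immunology panel in terminal ileum of C57BL/6 mice at week 7. Control mice (n = 7, 4 male and 3 female) drank water without antibiotic. PAT1 mice (n = 7, 4 male and 3 female) had 1 course of tylosin, a macrolide, which reached the nursing pups through the treated dam, and PAT3 mice (n = 10, 4 male and 6 female) had that course and later ones, 3 in all. The later courses came after weaning, so PAT3 mice were sampled sooner after their last course than PAT1 mice. Between the PAT groups, number of courses and time since the last course cannot be told apart. Whole litters were allotted to 1 group and cages held 1 sex of 1 group, so that litter, cage and treatment cannot be told apart. All values below are log2 normalized counts, and all differences are log2 fold changes, unless a count is named.

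Secretory IgA is made by plasma cells in the lamina propria and moved into the gut lumen by the epithelium. The polymeric immunoglobulin receptor, encoded by Pigr, binds IgA dimers on the basal side of enterocytes, and its cleaved outer part leaves with the antibody as secretory component. Fcamr, the gene next to Pigr on mouse chromosome 1, encodes a related Fc receptor for IgA and IgM. Activated B cells become plasma cells through a set of transcription factors in which IRF4 and Blimp-1 (Prdm1) switch the program on and XBP1 enlarges the secretory machinery. B cells and plasma cells are kept alive by the cytokine BAFF (Tnfsf13b) and the related APRIL through 3 receptors. BAFF-R (Tnfrsf13c) serves naive and follicular B cells, TACI (Tnfrsf13b) serves IgA class switching and plasma cell formation, and BCMA (Tnfrsf17) is a survival receptor of plasma cells.

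All 9 genes matched the RefSeq promoter table of build GRCm38.p6. The promoters of Pigr and Tnfrsf17 are printed because these were the members that fell in both antibiotic groups. Each run holds 250 bases before the annotated start and 30 from it, 5′ to 3′ on the plus strand, at chr1:130826434-130826713 for Pigr and chr16:11313559-11313838 for Tnfrsf17.
Pigr: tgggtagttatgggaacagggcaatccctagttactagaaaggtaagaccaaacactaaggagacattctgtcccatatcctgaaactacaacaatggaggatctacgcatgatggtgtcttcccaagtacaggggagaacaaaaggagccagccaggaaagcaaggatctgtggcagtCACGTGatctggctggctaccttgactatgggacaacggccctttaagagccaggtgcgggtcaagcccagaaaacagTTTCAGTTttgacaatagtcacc
Tnfrsf17: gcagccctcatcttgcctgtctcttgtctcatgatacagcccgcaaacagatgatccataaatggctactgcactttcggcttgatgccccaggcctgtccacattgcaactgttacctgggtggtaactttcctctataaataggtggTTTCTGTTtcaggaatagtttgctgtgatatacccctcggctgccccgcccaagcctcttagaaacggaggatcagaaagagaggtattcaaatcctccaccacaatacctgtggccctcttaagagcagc
Capitals mark an E-box, CACGTG, and a core of the elements that interferon regulatory factors bind, AANNGAAA, both searched on both strands and not overlapping here. In Pigr the E-box begins at -71 and the core, read on the other strand, at 8 from the start. Tnfrsf17 holds the core at -101, also on the other strand. Among all 32851 promoters of 300 bases in the table, 7.15% held the E-box and 23.9% the core. Of the 9 members, 1 (Pigr) held the E-box, and 4 (Pigr, Fcamr, Tnfsf13b and Tnfrsf17) held the core. Such matches describe the letters of these windows only.

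Totals ran from 171671 to 782392 counts per sample, with the lowest in PAT1 replicate 1, PAT3 replicate 7 and PAT1 replicate 3, all under 300000. The measured cell type markers, among them those of enterocytes (6 genes), were all above 0 counts in every sample. Of 9 plasma cell markers listed, the 4 measured here (Tnfrsf17, Prdm1, Xbp1 and Irf4) are all members, and Sdc1, Jchain, Igha and Mzb1 were not analysed here. The 9 B cell markers were higher in PAT1 replicates 2, 4 and 7, whose marker means were 7.23, 6.92 and 8.46, than in any other sample (highest 6.37). Of 12 T cell markers 3 fell in PAT1, beside 11.2% of all genes, and 9 in PAT3, beside 17.9%. Of 6 stromal and endothelial markers 3 rose in PAT3, beside 13.9% of all genes (mean log2 value 8.11 ± 0.25 (SD, n = 7) in Control and 8.59 ± 0.43 (SD, n = 10) in PAT3). Of 12 myeloid markers 1 fell in PAT1, beside 11.2% of all genes, and 2 in PAT3, beside 17.9%. Bulk RNA does not separate fewer cells of a type from less RNA per cell. The median over all genes was below that of Control by a difference of -0.14 in PAT1 and -0.19 in PAT3, so that centring samples on the median raises the fold changes by these amounts.

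To ask how 1 course and 3 courses left these genes, each was compared among the groups with limma over all 547 genes, and a gene is said to have risen or fallen where the adjusted p was under 0.05. A number of mice given with a change is of those on its side of the mean of the group compared against, and groups can still overlap. By the F-test over the 3 groups, 7 of 9 members differed, beside 34.6% of all genes, and the exceptions were Xbp1 (adjusted p = 0.294) and Tnfsf13b (adjusted p = 0.0785). In PAT1, 3 of 9 members passed against Control, beside 18.5% of all genes. Pigr and Tnfrsf17 fell, beside 11.2% of all genes that fell, and Fcamr rose. In PAT3, 6 of 9 members passed, beside 31.8% of all genes. All 6 were falls, beside 17.9% of all genes, and they were Pigr, Prdm1, Irf4, Tnfsf13b, Tnfrsf13b and Tnfrsf17. The median difference of the 9 members was -0.26 in PAT1 and -0.75 in PAT3, where that of all genes was 0.01 and 0.03. These comparisons share the same Control mice. Between the PAT groups, 1 of 9 members passed, beside 4.20% of all genes, and this was Tnfrsf13c, a fall beside 2.74% of all genes. Groups did not overlap for 1 member in PAT1 (Pigr), beside 6.22% of all genes, and for 2 in PAT3 (Pigr and Tnfrsf17), beside 9.32%. By the methods' test, aov with TukeyHSD, Pigr and Tnfrsf17 still passed in PAT1, and Irf4, Tnfrsf13b and Tnfrsf17 in PAT3. On scaling to B2m, whose own difference in PAT3 was -0.32 (not passing), Tnfrsf17 alone of the 6 PAT3 falls still passed. On that scaling 179 of 546 genes passed in PAT3, of which 135 were higher and 44 lower. Without it 76 were higher and 98 lower.

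**Figure D1:**
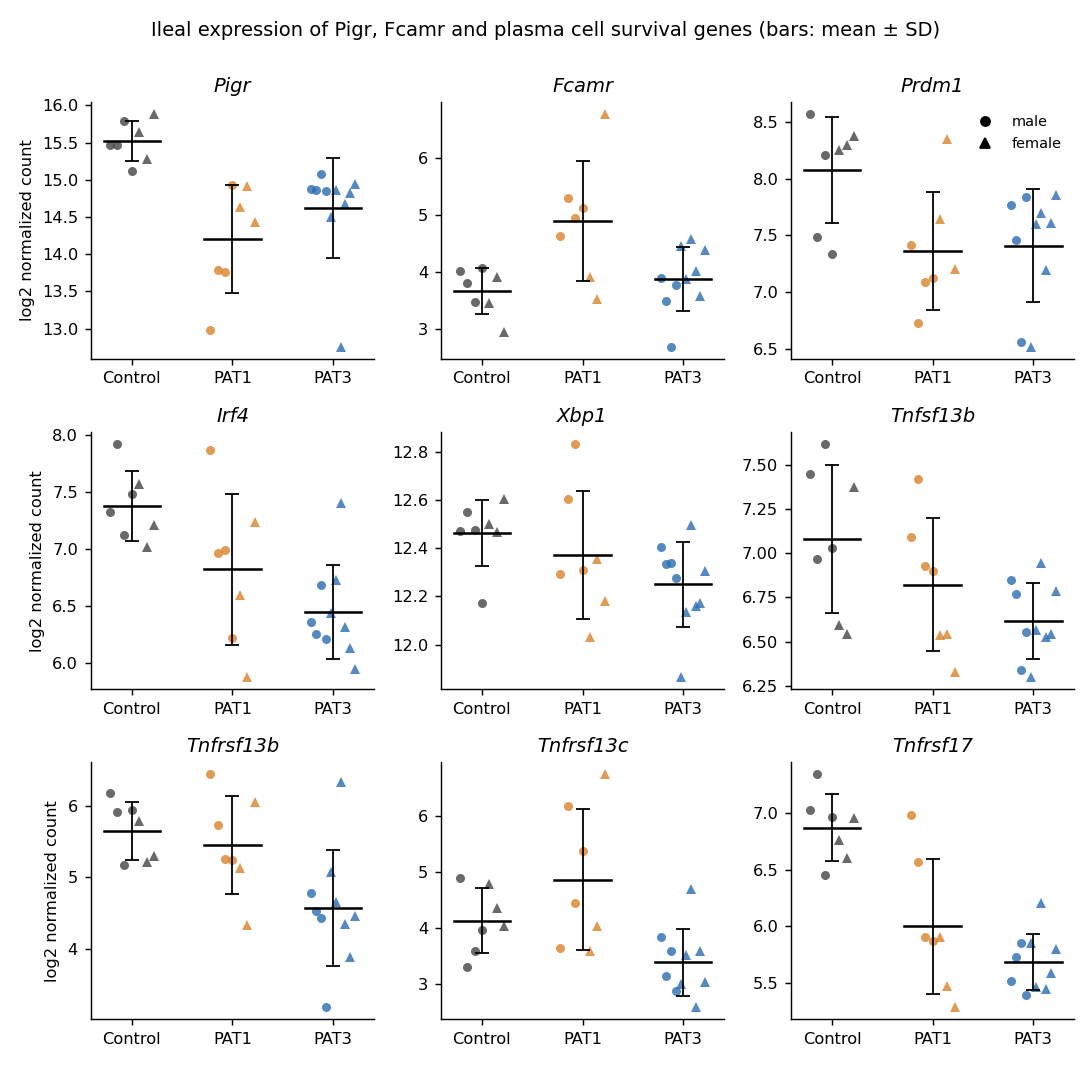
Log2 normalized counts (vertical axes) of the 9 genes in each mouse of Control, PAT1 and PAT3 (horizontal axes), with circles for males, triangles for females, and bars for the mean ± SD. Pigr lay below every Control value in all PAT mice, as Tnfrsf17 did in PAT3, while for Xbp1 Control and PAT3 overlapped through Control replicate 4 and PAT3 replicate 7.

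**Figure D2:**
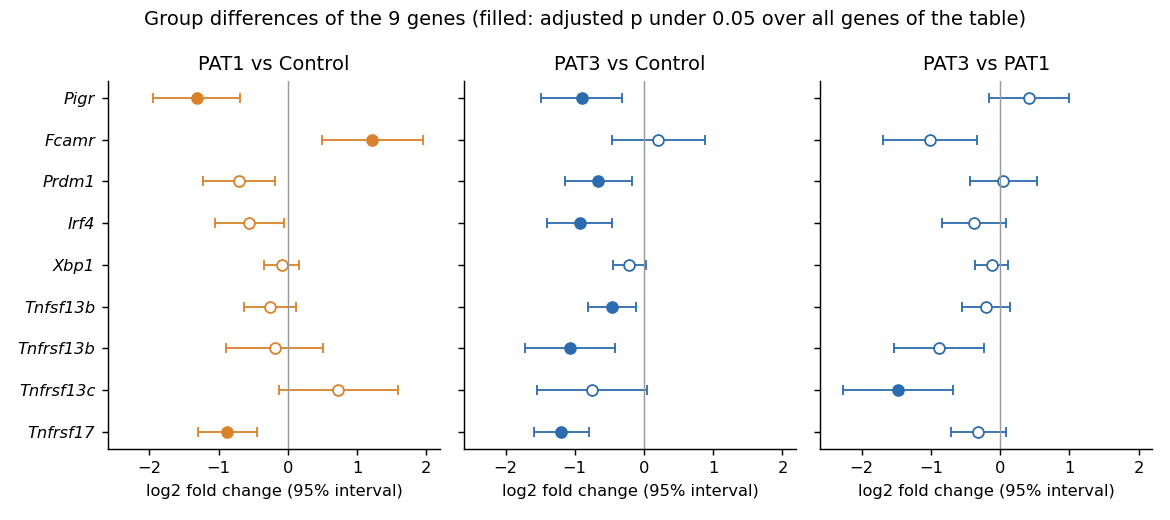
Log2 fold changes (horizontal axes, with 95% intervals) of the 9 genes in PAT1 against Control, PAT3 against Control and PAT3 against PAT1, where filled points had an adjusted p under 0.05 over 547 genes. Filled points numbered 3, 6 and 1 in the 3 panels, and of them only Fcamr in PAT1 lay above 0.

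Pigr, the epithelial IgA transporter, ranged from 15.12 to 15.88 in Control (median 15.47). In PAT1 it ranged from 12.98 to 14.93 (median 14.44). In PAT3 it ranged from 12.75 to 15.08 (median 14.85). Both PAT groups lay wholly below Control and overlapped with each other. As a share of all counts of a sample, Pigr took from 7.57% (Wilson 95% interval 7.49 to 7.65) to 9.99% (9.91 to 10.06) in Control. The share ran from 1.90% (1.84 to 1.97) to 5.60% (5.54 to 5.66) in PAT1 and from 1.51% (1.47 to 1.56) to 6.60% (6.54 to 6.67) in PAT3, intervals that cover counting error only. The change was -1.32 (SE 0.31, adjusted p = 0.00321, lower in 7 of 7 mice) in PAT1 and -0.90 (SE 0.28, adjusted p = 0.0166, lower in 10 of 10) in PAT3. PAT3 against PAT1 differed by 0.42 (95% interval -0.17 to 1.0, adjusted p = 0.349). That comparison passed without PAT3 replicate 7 (0.62, adjusted p = 0.0443), on scaling to B2m (0.92, adjusted p = 0.0479) and in males alone (1.05, adjusted p = 0.0327), and its sign turned in females (-0.24, adjusted p = 0.858). The PAT1 fall passed under 41 of 42 alternatives, all but females alone (-0.94, adjusted p = 0.297). The PAT3 fall did not pass with the methods' test (adjusted p = 0.0664), in males (-0.55, adjusted p = 0.214) or females (-1.18, adjusted p = 0.0865) alone, or after quantile normalization (-0.60, adjusted p = 0.0532).

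Across mice of a group, Pigr varied with depth. Its deviation from the group mean correlated with that of the log2 total count at Pearson r = 0.84 (permutation p = 0.00016, adjusted p = 0.00288) and Spearman rho = 0.75 (permutation p = 0.00061, adjusted p = 0.00999) over 24 samples. These were among 36 relations computed of members with depth and marker means, of which 9 passed by both measures. Without the 2 samples farthest in depth r was 0.68. Within Control, PAT1 and PAT3 the values of r were 0.44, 0.91 and 0.89. Without the 3 shallowest libraries r was 0.53. Pigr counts are themselves part of the total. The lowest Pigr values, 12.75 and 12.98, belonged to the shallowest libraries, PAT3 replicate 7 and PAT1 replicate 1. With the size factor as a covariate the falls were smaller and still passed, at -0.90 in PAT1 and -0.81 in PAT3. Without the 3 shallowest libraries they were -0.98 and -0.69 and also passed. PAT3 against PAT1 was 0.089 with the size factor (adjusted p = 0.853) and 0.29 without those libraries (adjusted p = 0.261).

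**Figure D3:**
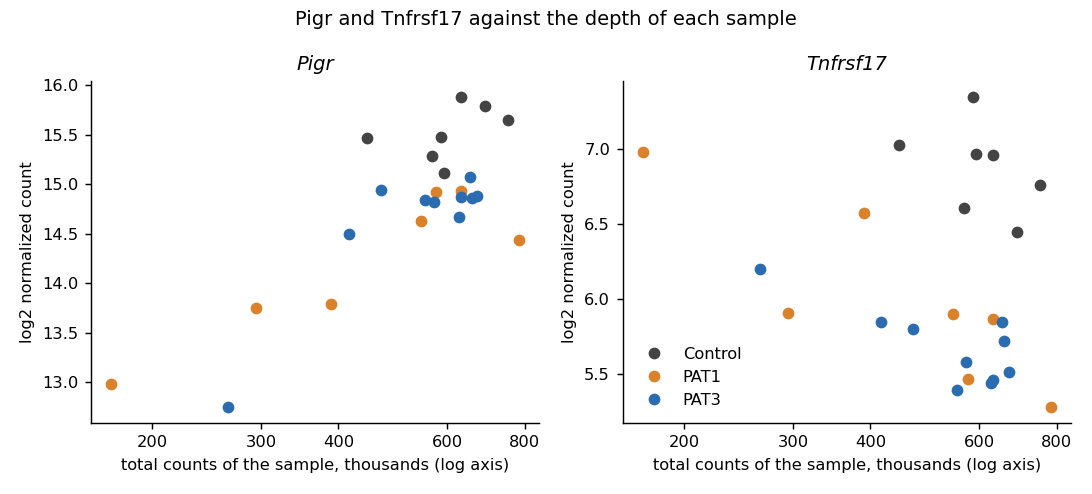
Log2 normalized counts (vertical axes) of Pigr and Tnfrsf17 against the total counts of each sample (horizontal axes, log scale), coloured by group. Pigr was lowest in the shallow libraries, whereas Tnfrsf17 was high in the shallowest, PAT1 replicate 1 (6.98).

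Pigr was also set against the enterocytes of the same sample, as its log2 value minus the mean of 6 enterocyte markers, a difference that does not depend on scaling. In the 7 Control mice it had a mean of 3.42 ± 0.35 (SD) and ran from 3.10 to 3.97. In the 7 PAT1 mice the mean was 1.66 ± 0.39 (SD), with values from 1.11 to 2.21. In the 10 PAT3 mice the mean was 2.24 ± 0.73 (SD), with values from 0.77 to 3.60. PAT1 lay wholly below Control, and PAT3 overlapped with it through 1 mouse. The change from Control was -1.76 in PAT1 (exact permutation p = 0.000583, adjusted p = 0.00524 over 18 such tests, 7 of 7 mice) and -1.18 in PAT3 (exact permutation p = 0.00113, adjusted p = 0.00679, 9 of 10). Thus Pigr and the enterocyte markers changed unequally. Among those 6 markers, 2 rose and 1 fell in each PAT group. Of all genes 7.31% rose and 11.2% fell in PAT1, and 13.9% rose and 17.9% fell in PAT3. The chemokine gene Ccl25 was among the markers that rose. After quantile normalization the PAT3 change was -0.96 and did not pass (adjusted p = 0.127).

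Fcamr, the neighbouring receptor gene, was sparse, with 8 to 24 counts in Control and 8 to 22 in PAT3. Its values ran from 2.94 to 4.08 (median 3.81) in Control. They ran from 3.53 to 6.78 (median 4.95) in PAT1 and from 2.68 to 4.58 (median 3.89) in PAT3. PAT1 overlapped with Control through its lowest mice, and its highest mouse, replicate 7, held 169 counts. Fcamr was higher by 1.22 in PAT1 (SE 0.35, adjusted p = 0.0150, 6 of 7 mice), in the opposite direction to Pigr. The difference was 0.21 in PAT3 (95% interval -0.47 to 0.88, adjusted p = 0.638). PAT3 differed from PAT1 by -1.01 (adjusted p = 0.0576), which passed without PAT1 replicate 5 (-1.18, adjusted p = 0.0235) or 6 (-1.24, adjusted p = 0.0163) and without PAT3 replicate 7 (-1.09, adjusted p = 0.0265) or 10 (-1.07, adjusted p = 0.0479). It also passed in males alone (-1.54, adjusted p = 0.00662), and after re-centring, with voom, with sample weights or with the enterocyte mean as a covariate (-0.97 to -1.09, adjusted p = 0.0132 to 0.0466). The 3 PAT1 samples rich in B cell markers held its values of 5.30, 5.13 and 6.78, the highest of all samples. Without them the PAT1 difference was 0.58 and did not pass (adjusted p = 0.210), nor did it pass with the methods' test (adjusted p = 0.0707), on scaling to B2m (1.04, adjusted p = 0.0754) or when females were fitted by themselves (1.30, adjusted p = 0.297). With all samples and the B cell mean as a covariate it was 0.84 and passed (adjusted p = 0.0253), and PAT3 against PAT1 was then -0.31 (adjusted p = 0.686).

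Of the transcription factors, Prdm1 and Irf4 fell in PAT3 and Xbp1 did not pass in either group. Prdm1, which shuts off the B cell program, ran from 7.34 to 8.57 in Control (median 8.25), from 6.73 to 8.35 in PAT1 (median 7.20) and from 6.52 to 7.85 in PAT3 (median 7.60). The groups overlapped, since Control replicates 2 and 4 were as low as many PAT mice. Prdm1 differed by -0.71 in PAT1 (95% interval -1.23 to -0.18, adjusted p = 0.0525) and by -0.66 in PAT3 (SE 0.23, adjusted p = 0.0331, 10 of 10 mice). PAT3 against PAT1 differed by 0.04 (adjusted p = 0.932). Both values sat near the threshold. In PAT1 the value passed without Control replicate 2 or 4, PAT1 replicate 6, or PAT3 replicate 3 or 5 (-0.71 to -0.87, adjusted p = 0.0128 to 0.0427). It also passed on scaling to B2m (-0.89, adjusted p = 0.0180), with the low filter, voom, sample weights, a variance trend, sex or the size factor (-0.69 to -0.84, adjusted p = 0.00715 to 0.0477), and with the enterocyte mean as a covariate (-0.98, adjusted p = 0.00105). In PAT3 it no longer passed without Control replicate 1, 3, 5, 6 or 7 or PAT3 replicate 3, 5 or 8 (-0.57 to -0.64, adjusted p = 0.0526 to 0.0807). After centring on the median it was -0.47 (adjusted p = 0.158), and with the enterocyte mean as a covariate -0.83 (adjusted p = 0.00104). The PAT3 value also did not pass with the methods' test (adjusted p = 0.109), after quantile normalization (-0.61, adjusted p = 0.0624) or on scaling to B2m (-0.34, adjusted p = 0.256). Nor did it pass in males (-0.49, adjusted p = 0.261) or females (-0.89, adjusted p = 0.0803) alone.

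Prdm1 is also expressed by epithelial and T cells, and its deviations followed those of the enterocyte mean (r = 0.68, permutation p = 0.00055, adjusted p = 0.00495; rho = 0.68, permutation p = 0.00058, adjusted p = 0.00999; n = 24). Without the 2 samples farthest in that mean r was 0.71, and within groups it was 0.88, 0.33 and 0.77 in Control, PAT1 and PAT3. The relation of Irf4 with the same mean ran the other way (r = -0.55, permutation p = 0.00641, adjusted p = 0.0246; rho = -0.59, permutation p = 0.00339, adjusted p = 0.0174; -0.59 without the 2 farthest samples). Thus the 2 factors moved in opposite directions with the enterocyte markers.

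Irf4, needed for class switching and plasma cell formation, ran from 7.02 to 7.92 (median 7.32) in Control. It ran from 5.88 to 7.87 (median 6.97) in PAT1 and from 5.94 to 7.41 (median 6.33) in PAT3. In PAT3 all mice but replicate 7 were below every Control mouse, whereas PAT1 was spread over the range of both groups. The change in PAT3 was -0.93 (SE 0.23, adjusted p = 0.00275, 9 of 10 mice). In PAT1 the difference was -0.55 (adjusted p = 0.131), and without PAT1 replicate 1, the shallowest library, it was -0.73 and passed (adjusted p = 0.0217). It also passed without the 3 shallowest libraries (-0.80, adjusted p = 0.00769), with sample weights (-0.78, adjusted p = 0.00525) and with the size factor in the fit (-0.75, adjusted p = 0.0262). PAT3 against PAT1 differed by -0.38 (adjusted p = 0.297).

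Xbp1, the factor of the unfolded protein response, ran from 12.17 to 12.60 (median 12.48) in Control. It ran from 12.03 to 12.83 (median 12.31) in PAT1 and from 11.87 to 12.50 (median 12.29) in PAT3. Of the Control mice, 6 of 7 lay above 9 of 10 PAT3 mice, and these groups overlapped through Control replicate 4 (12.17) and PAT3 replicate 7 (12.50). PAT1 reached both below and above Control. Its difference was -0.09 in PAT1 (95% interval -0.35 to 0.17, adjusted p = 0.672) and -0.21 in PAT3 (95% interval -0.45 to 0.03, adjusted p = 0.162), so that in either group a mean change beyond -0.45 lay outside the interval. The sign in PAT1 turned after centring on the median (0.05) and in males (0.092), and that in PAT3 on scaling to B2m (0.11). The PAT3 difference passed after quantile normalization (-0.32, adjusted p = 0.0371) and with sample weights (-0.23, adjusted p = 0.0182).

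The ligand BAFF (Tnfsf13b) ran from 6.54 to 7.62 (median 7.03) in Control. It ran from 6.33 to 7.42 (median 6.90) in PAT1 and from 6.30 to 6.95 (median 6.56) in PAT3. The groups overlapped, and PAT3 was the narrowest, with an SD of 0.21 against 0.42 in Control. In PAT3 it fell by 0.46 (SE 0.17, adjusted p = 0.0355, 10 of 10 mice below the Control mean). In PAT1 the difference was -0.26 (adjusted p = 0.360), and PAT3 against PAT1 differed by -0.20 (adjusted p = 0.455). The PAT3 fall was lost without Control replicate 1, 3 or 7 or PAT3 replicate 3, 4, 5, 6, 8 or 9 (-0.38 to -0.46, adjusted p = 0.0506 to 0.0925), and after centring on the median (-0.27, adjusted p = 0.258). It was also lost with the methods' test (adjusted p = 0.0910), after quantile normalization (-0.27, adjusted p = 0.315) and on scaling to B2m (-0.14, adjusted p = 0.504). Nor did it pass with the B cell mean as a covariate (-0.45, adjusted p = 0.0592) or in females (-0.23, adjusted p = 0.574).

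The receptors differed in pattern. TACI (Tnfrsf13b) ran from 5.17 to 6.18 (median 5.78) in Control, from 4.34 to 6.44 (median 5.26) in PAT1 and from 3.19 to 6.33 (median 4.50) in PAT3. All PAT3 mice but replicate 7 (6.33) were below every Control mouse. The change in PAT3 was -1.07 (SE 0.32, adjusted p = 0.0108, 9 of 10 mice), with a difference of -0.19 in PAT1 (adjusted p = 0.758). PAT3 against PAT1 differed by -0.88 (adjusted p = 0.0771) and passed without PAT3 replicate 7 (-1.08, adjusted p = 0.0131) or PAT1 replicate 6 (-1.07, adjusted p = 0.0268). It also passed with sample weights (-0.85, adjusted p = 0.0290), with the enterocyte mean as a covariate (-0.99, adjusted p = 0.0268) and in males (-1.43, adjusted p = 0.0182).

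BAFF-R (Tnfrsf13c) was counted 12 to 35 times in Control, 5 to 165 times in PAT1 and 7 to 18 times in PAT3. Its values ran from 3.31 to 4.89 (median 4.03) in Control, from 3.58 to 6.74 (median 4.45) in PAT1 and from 2.58 to 4.68 (median 3.33) in PAT3. PAT1 overlapped with both groups, and its 3 highest values, 6.74, 6.17 and 5.37, were in replicates 7, 2 and 4. Against Control the difference was 0.73 in PAT1 (adjusted p = 0.262) and -0.75 in PAT3 (95% interval -1.54 to 0.05, adjusted p = 0.139). PAT3 was lower than PAT1 by -1.47 (SE 0.39, adjusted p = 0.0401, 10 of 10 mice). This call was lost without PAT1 replicate 1, 2, 4 or 7, or without any 1 PAT3 replicate from 1 to 6, 8 or 9 (-1.16 to -1.68, adjusted p = 0.0535 to 0.135). Without the 3 PAT1 samples rich in B cell markers it was -0.54 (adjusted p = 0.410), the PAT1 difference was -0.20, and that of PAT3 from Control passed (-0.75, adjusted p = 0.0317), as it did with sample weights (-0.82, adjusted p = 0.0155) and in a fit of these 2 groups (adjusted p = 0.0346). With the B cell mean as a covariate PAT3 against PAT1 was -0.47 (adjusted p = 0.491).

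**Figure D4:**
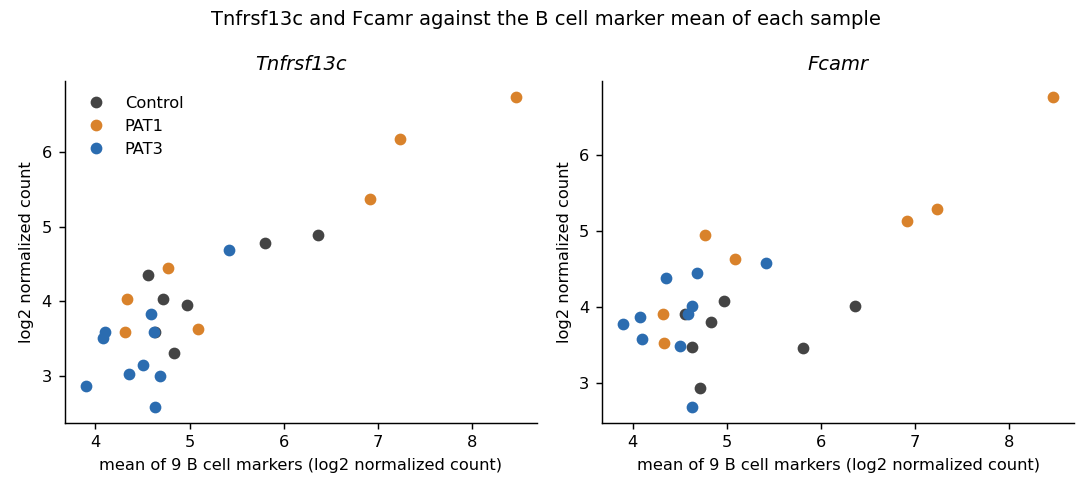
Log2 normalized counts (vertical axes) of Tnfrsf13c and Fcamr against the mean log2 value of 9 B cell markers in the same sample (horizontal axes), coloured by group. PAT1 replicates 7, 2 and 4, with marker means of 8.46, 7.23 and 6.92, lay apart from all other samples and held the highest values of both genes.

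The deviations of Tnfrsf13c followed those of the B cell mean (r = 0.86, permutation p = 5e-05, adjusted p = 0.00180; rho = 0.76, permutation p = 0.00111, adjusted p = 0.00999; n = 24). Without the 2 samples farthest in that mean r was 0.76, without the 3 rich samples 0.59, and within groups it was 0.76, 0.95 and 0.57 in Control, PAT1 and PAT3. Fcamr followed it as well (r = 0.72, permutation p = 0.00088, adjusted p = 0.00634; rho = 0.60, permutation p = 0.00628, adjusted p = 0.0283; 0.55 without the 2 farthest samples). For Fcamr r was 0.26, 0.91 and 0.34 in the 3 groups and 0.35 without the rich samples, so this relation rested mainly on PAT1. Whether the amount of lymphoid tissue in the sample had a part in these values was not tested.

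BCMA (Tnfrsf17), the plasma cell receptor, had the smallest adjusted p of the 9 genes in PAT3. It ran from 6.45 to 7.35 (median 6.96) in Control, from 5.28 to 6.98 (median 5.90) in PAT1 and from 5.39 to 6.20 (median 5.66) in PAT3. PAT3 lay wholly below Control, and in PAT1 5 of 7 mice did so, all but replicates 1 and 2. Counts were 97 to 198 in Control, 33 to 70 in PAT1 and 43 to 72 in PAT3. The change was -0.88 in PAT1 (SE 0.21, adjusted p = 0.00359, 6 of 7 mice) and -1.19 in PAT3 (SE 0.19, adjusted p = 3.06e-05, 10 of 10). PAT3 against PAT1 differed by -0.31 (adjusted p = 0.299). The PAT3 fall passed under 42 of 42 alternatives and the PAT1 fall under 41 of 42, the exception being males alone (-0.62, adjusted p = 0.148).

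Tnfrsf17 also varied with depth, but against it (r = -0.77, permutation p = 0.00044, adjusted p = 0.00495; rho = -0.66, permutation p = 0.00152, adjusted p = 0.0109; n = 24). Without the 2 samples farthest in depth r was -0.57, and within groups it was -0.42, -0.85 and -0.77 in Control, PAT1 and PAT3. The counts in the PAT groups stayed between 33 and 72 while totals ran from 171671 to 782392. In each PAT group the shallowest library held the lowest Pigr and the highest Tnfrsf17, and the part of depth in either was not tested. With the size factor as a covariate both falls of Tnfrsf17 still passed.

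Xbp1 and Tnfrsf17, both on the plasma cell marker list, changed unequally within samples. In whole ileum of Control mice Xbp1 had a median of 6570 counts against 130 for Tnfrsf17. The part of cells other than plasma cells in the Xbp1 values was not tested. Xbp1 minus Tnfrsf17 averaged 5.59 ± 0.32 (SD, n = 7) in Control and ran from 5.20 to 6.03. In PAT3 it averaged 6.57 ± 0.27 (SD, n = 10) and ran from 6.01 to 6.89. The ranges met only at their ends, a change of 0.98 (exact permutation p = 0.000103, adjusted p = 0.00185, 10 of 10 mice). In PAT1 it averaged 6.37 ± 0.60 (SD, n = 7), a change of 0.79 (exact permutation p = 0.0134, adjusted p = 0.0603), which was 0.96 and passed without PAT1 replicate 1 (adjusted p = 0.00350) and also passed without PAT3 replicate 7 (adjusted p = 0.0483). Prdm1 minus Tnfrsf17 did not pass in PAT1 (0.17, exact permutation p = 0.714, adjusted p = 0.714) or PAT3 (0.53, exact permutation p = 0.112, adjusted p = 0.168).

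Tnfrsf17 was also compared with the B cell side. Tnfrsf17 minus the B cell mean had a mean of 1.75 ± 0.68 (SD) over the 7 Control mice. Means were 0.12 ± 1.84 (SD) over the 7 PAT1 mice and 1.19 ± 0.27 (SD) over the 10 PAT3 mice. The change was -1.63 in PAT1 (exact permutation p = 0.0425, adjusted p = 0.0957) and -0.56 in PAT3 (exact permutation p = 0.0346, adjusted p = 0.0890). The PAT3 change passed without Control replicate 1 (-0.74, adjusted p = 0.0142) or 5 (-0.69, adjusted p = 0.0455), and the PAT1 change without PAT1 replicate 1 (-1.92, adjusted p = 0.0341). Tnfrsf17 minus Tnfrsf13c changed by -1.60 in PAT1 (exact permutation p = 0.0210, adjusted p = 0.0755) and by -0.45 in PAT3 (exact permutation p = 0.144, adjusted p = 0.200). The former passed without PAT1 replicate 1 (-1.97, adjusted p = 0.00874). Without the 3 PAT1 samples rich in B cell markers, the PAT1 change of Tnfrsf17 minus Tnfrsf13c was -0.61 (adjusted p = 0.409). That of Tnfrsf17 minus the B cell mean was then -0.31 (adjusted p = 0.592). In all, 3 of 18 such tests passed, those of Pigr in both groups and of Xbp1 in PAT3.

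Members varied together among mice of a group in some pairs. Irf4 and Tnfrsf13b were the closest pair and the only 1 of 36 to pass by both measures (r = 0.79, permutation p = 3e-05, adjusted p = 0.00108; rho = 0.77, permutation p = 6e-05, adjusted p = 0.00216; n = 24). Without the 2 samples farthest in Irf4 r was 0.65, and it was 0.67, 0.93 and 0.77 in Control, PAT1 and PAT3. Pigr correlated negatively with Irf4 (r = -0.76, permutation p = 0.00059, adjusted p = 0.0106), but rho was -0.55 and did not pass (permutation p = 0.0158, adjusted p = 0.102). Without PAT1 replicate 1 and PAT3 replicate 7, the samples with the lowest Pigr, that r was -0.51. All these values share the size factor of the sample.

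**Figure D5:**
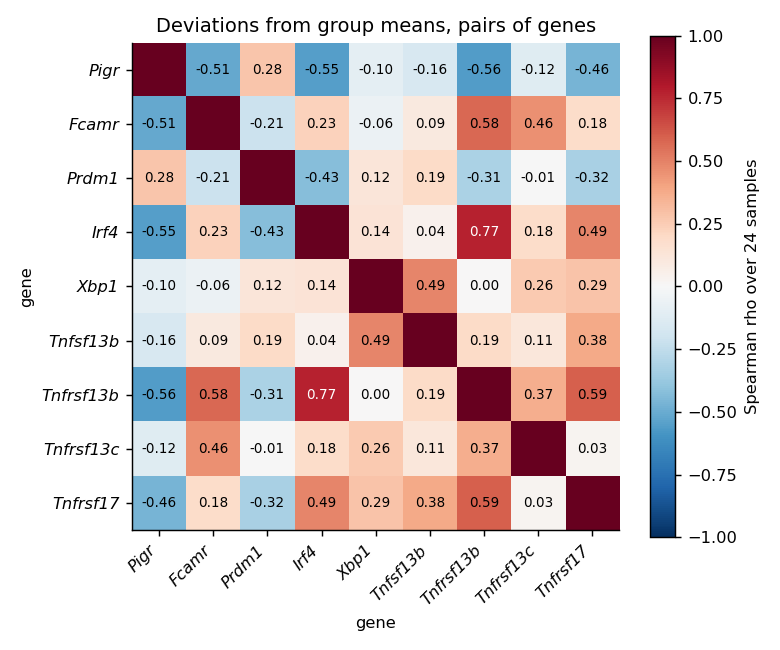
Spearman rho between each pair of the 9 genes (both axes), from deviations from the group means over 24 samples, with red for positive and blue for negative values. Irf4 and Tnfrsf13b stood out at 0.77, and Pigr was negative with Tnfrsf13b (-0.56), Irf4 (-0.55), Fcamr (-0.51) and Tnfrsf17 (-0.46).

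No member passed the test of a difference between sexes, beside 2 of 547 genes. None had an effect of treatment that passed a test of the difference between sexes, beside 0.183% of all genes in that test. The smallest of these p-values were 0.0530 (adjusted p = 0.281) for the interaction in Tnfrsf17 and 0.0213 (adjusted p = 0.330) for the difference in Tnfsf13b, which was lower in females by a difference of -0.31. For Tnfrsf17 the PAT1 difference was -1.23 in females and -0.62 in males, and the PAT3 difference -1.05 and -1.33. With 3 females in Control and in PAT1, limma on females alone kept 1 of 9 members in each comparison with Control, Tnfrsf17. Over all 547 genes that fit kept 23 in PAT1 and 57 in PAT3.

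Of the other genes of the BAFF and NF-kB pathway, 13 were measured. None passed as lower, while 2 rose in PAT1, beside 7.31% of all genes, and 7 in PAT3, beside 13.9%, with median differences of 0.22 and 0.31. Relb, the transcription factor of the alternative NF-kB route that BAFF-R drives, rose by 1.20 in PAT1 (adjusted p = 0.000310, 7 of 7 mice) and by 0.83 in PAT3 (adjusted p = 0.00167, 9 of 10). In PAT3 its partner Nfkb2 rose by 0.53 (adjusted p = 0.00360). Bcl2, which guards lymphocytes from apoptosis, rose there by 0.68 (adjusted p = 0.00215). Traf3, a brake on the alternative route, rose by 0.48 (adjusted p = 0.0310), Ikbkg by 0.45 (adjusted p = 0.0197) and Rela by 0.41 (adjusted p = 0.00644), all in PAT3. These pathway genes thus ran opposite to the ligand and to the receptors TACI and BCMA in PAT3, and all of them are expressed well beyond the B lineage.

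Among 22 genes of IgA induction and plasma cell traffic, the PAT1 group had 2 that rose and 1 that fell, beside 7.31% and 11.2% of all genes. The PAT3 group had 5 that rose and 4 that fell, beside 13.9% and 17.9%. The median differences of the list were 0.22 and -0.02. Ccl25 rose by 1.13 in PAT1 (adjusted p = 0.000343) and by 0.81 in PAT3 (adjusted p = 0.00154). Its receptor Ccr9, on gut-homing lymphocytes, fell by 0.71 in PAT3 (adjusted p = 0.00757), with a difference of -0.24 in PAT1 (adjusted p = 0.477). Ccr10, the receptor of IgA plasma cells for Ccl28, fell in both (-0.77, adjusted p = 0.0295, and -0.76, adjusted p = 0.0129). Cd27, a receptor of memory B cells, plasma cells and T cells, fell in PAT3 (-0.80, adjusted p = 0.00770). Both had few counts, with medians in Control, PAT1 and PAT3 of 42, 20 and 27 for Ccr10 and 32, 18 and 16 for Cd27. Smad3, which relays the TGF-beta signal for IgA switching, rose in PAT3 (0.63, adjusted p = 0.00187). Lta, a lymphotoxin, rose in PAT1 (0.89, adjusted p = 0.0381) and was lower in PAT3 than in PAT1 (-1.03, adjusted p = 0.0401). It was sparse, with median counts of 17 in Control, 19 in PAT1 and 14.5 in PAT3. Thus 3 lymphocyte receptors fell in PAT3 beside the T cell markers, whose mean was 6.15 ± 0.10 (SD, n = 7) in Control and 5.13 ± 0.34 (SD, n = 10) in PAT3, and the part of T cells in those falls was not tested.

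The 23 genes of signals known to induce Pigr split. In PAT1 there were 3 rises and 6 falls, beside 7.31% and 11.2% of all genes, and in PAT3 5 rises and 7 falls, beside 13.9% and 17.9%. The median differences of the list were -0.14 and -0.11. Il17a, the Th17 cytokine that raises Pigr in epithelium, fell in PAT1 (-1.05, adjusted p = 0.00567) and in PAT3 (-1.28, adjusted p = 0.000283). From a median of 19 counts in Control mice it went to 8 in PAT1 mice and 7.5 in PAT3 mice. Il17f (-1.45, adjusted p = 0.0196) and Il22 (-1.56, adjusted p = 0.00802) fell in PAT3, both from few counts. Their median counts were 15 and 6 in Control and 6 and 3 in PAT3. Tlr2, a sensor of bacterial lipoproteins, fell in both (-1.18, adjusted p = 0.000355, in PAT1 and -1.0, adjusted p = 0.000334, in PAT3). Relb, also on this list, rose as given above.

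To describe what else varied with each member, genes among the 3 of the table with the highest rho of deviations over 24 samples are given, as a description without a test. Pigr was most like Tnfrsf11a (0.94), Ikbke (0.91) and Ikbkb (0.88), and the first of these exceeded every pair among the members. For Fcamr they were Cxcl13 (0.70), the chemokine of B cell follicles, Cd69 (0.69) and Xcr1 (0.69). For Tnfrsf13c they included H2-Ob (0.84) and Ms4a1 (0.76), the B cell gene for CD20. Tnfrsf13b was most like Icos (0.81), Irf4 (0.77) and Slamf7 (0.77). Irf4 itself was followed by Tnfrsf13b, Tagap (0.73) and Itgb2 (0.72). The list for Tnfrsf17 held Fcgr4 (0.79) and Fcgr1 (0.79), Fc receptors of myeloid cells, and Ccrl2 (0.75). Prdm1 was most like Prkcd (0.78), Irak2 (0.77) and Mme (0.77). Xbp1 was closest to the proteasome genes Psmb7 (0.82) and Psmb5 (0.80), and those of Tnfsf13b included B2m (0.79) and Ifi35 (0.78). Tnfrsf17 and Tnfrsf13c had no gene in common among their closest 3, as was so for nearly all pairs of members.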

How the data were processed

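The assay counts colour-coded probe pairs hybridized to total RNA, without amplification. The authors normalized the counts with DESeq2 and deposited log2 values of 547 genes in 24 samples. RNA came from a TRIzol extraction with a column step per the labels, and from another kit per the study's methods. Whether background was subtracted is not given in the sources used here. Whole counts were recovered from the steps of the values (100% of 13109 values above 0 counts whole within 0.01 counts; totals 171671 to 782392), and a count of 0 was listed as 0. Groups and sex came from the labels, whose group sizes differ from those in the study's figure legend. Replicate numbers follow sample order and pair nothing.

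Genes were tested with limma 3.58.1 (lmFit and eBayes, R 4.3.3) on the deposited log2 values in 1 fit of all 24 samples without covariates or filter, with Benjamini-Hochberg adjustment over 547 genes within each contrast and a threshold of 0.05. The script was tested on simulated data. Within-sample differences used two-sided exact permutation tests, adjusted over 18. Correlations used deviations from group means and 100000 permutations within groups, adjusted over 36 in each family. P-values measure the spread between mice and treat them as independent.

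Named were every member, up to 6 genes of each of 3 pathway lists that passed against Control with the largest change, and the 3 genes most alike each member; some genes that the rule names are not reported here. The members and lists were chosen with earlier results of these data known. Alternatives were the methods' test (aov and TukeyHSD), re-centring, quantile normalization, scaling to B2m (the only reference gene on the list used that was measured), a pseudocount of 1, leaving out genes with a mean under 5, voom, sample weights, a variance trend, covariates, single sexes, 2-group fits and each sample left out. Leaving out the 3 libraries rich in B cell markers or the 3 shallowest was added after the data were seen. Of 547 symbols, 531 were current and 14 older synonyms in RefSeq (GRCm38.p6). Promoter sequences are from RefSeq. Protein sequences were not used here.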

Additional observations from a re-analysis of the deposited data

Results flagged for a closer look

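Of the 27 groups of samples tested, 9 genes in 3 groups each, 2 held 1 sample far from the rest by Dixon's criterion, which chance meets in about 1 group of 20. Pigr in PAT3 replicate 7 was 12.75, where the next lowest PAT3 mouse was 14.50, and the gap took up 0.753 of the group's range. That library was among the shallowest of the series, and of the other 8 genes it held the highest value of its group in 7, all but Prdm1. Without it the fall of Pigr in PAT3 still passed the test. Xbp1 in Control replicate 4 was 12.17, where the next lowest was 12.47, with a gap of 0.683 of the range. The part of depth or tissue composition in either was not tested.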

How the results depend on the processing

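The 10 member differences that passed (9 against Control and 1 between the PAT groups) were recomputed under 42 alternatives, and of 418 values 354 still passed, 64 did not and 0 changed sign. Of 710 values for the 17 differences that had not passed, 648 stayed so with the same sign, 39 passed and 23 changed sign. In PAT1, members that passed numbered 5 with sample weights, 5 with the size factor as a covariate and 1 in females. Over all 547 genes those settings gave 136, 130 and 23. In PAT3 members that passed numbered 3 with the methods' test, 1 on scaling to B2m and 1 in females. Over all genes those settings gave 138 of 547, 179 of 546 and 57 of 547, of which 82, 44 and 47 were lower. Between the PAT groups no member and no gene passed with the methods' test or with the size factor or B cell mean as a covariate. None passed either in females alone, in 2-group fits or without the B cell-rich libraries. Members also numbered 0 with quantile normalization, beside 32 of 547 genes, and with the low filter (which removes Fcamr and Tnfrsf13c), beside 48 of 393. Members numbered 2 after re-centring (57 genes) or with voom (47), 3 with sample weights (93) or the enterocyte mean as a covariate (79), and 4 in males (129).

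Over all genes, 57 passed in males and 23 in females in PAT1, and 287 with sample weights and 57 in females in PAT3. The F-test gave 309 with sample weights and 37 in females. Between the PAT groups the count of 23 by limma (156 at an unadjusted p under 0.05) became 57 after re-centring, 175 on scaling to B2m, 48 with the low filter, 47 with voom, 93 with sample weights, 39 with a variance trend, 79 with the enterocyte mean and 129 in males. It became 0 by the methods' test (95 unadjusted) and by limma with the size factor (122) or B cell mean (57) as a covariate, in females (38), in 2-group fits (136) and without the B cell-rich libraries (72). Leaving out 1 sample at a time gave 0 to 102 genes and 0 to 4 members there.

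Differences that had not passed changed sign as follows. Xbp1 in PAT1 was 0.054 after re-centring and 0.092 in males, and in PAT3 0.11 on scaling to B2m. On that scaling PAT3 against PAT1 gave 0.13 for Irf4, 0.38 for Xbp1, 0.30 for Tnfsf13b and 0.19 for Tnfrsf17. In females it gave -0.24 for Pigr, -0.32 for Prdm1, 0.00076 for Xbp1, 0.14 for Tnfsf13b and 0.17 for Tnfrsf17. Prdm1 was -0.0095 with sex, -0.16 with the B cell mean, -0.22 without the B cell-rich and -0.032 without the shallowest libraries, and -0.063 to 0.21 with 1 sample left out. Tnfrsf13b in PAT1 was 0.11 with the enterocyte mean, Fcamr in PAT3 -0.38 in males, and Tnfrsf13c in PAT1 -0.20 without the B cell-rich libraries.

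Of the within-sample differences, Pigr minus the enterocyte mean in PAT3 was -0.96 after quantile normalization and no longer passed. Without the B cell-rich libraries PAT3 against PAT1 was -0.24 for Tnfrsf17 minus the B cell mean and -0.17 for Tnfrsf13b minus Tnfrsf13c. The PAT1 changes were then -0.61 for Tnfrsf17 minus Tnfrsf13c and -0.31 for Tnfrsf17 minus the B cell mean. For Tnfrsf13b minus Tnfrsf13c the PAT1 change was then -0.15, and none of these passed. Without the shallowest libraries, Tnfrsf17 minus Tnfrsf13c passed in PAT1 (-2.11) and between PAT groups (1.75), Tnfrsf17 minus the B cell mean did so (-2.18 and 1.67), as did Tnfrsf13b minus Tnfrsf13c (-1.40 and 1.03) and Xbp1 minus Tnfrsf17 in PAT1 (0.89). With 1 sample left out, the ranges were as follows. Tnfrsf17 minus Tnfrsf13c ran from -1.97 to -1.17 in PAT1 and from 0.72 to 1.53 between PAT groups. Tnfrsf17 minus the B cell mean ran from -1.92 to -1.08, from -0.74 to -0.43 in PAT3 and from 0.52 to 1.37 between PAT groups. Prdm1 minus Tnfrsf17 ran from -0.082 to 0.37 and Xbp1 minus Tnfrsf17 from 0.70 to 0.96, both in PAT1. Pigr minus the enterocyte mean ran from 0.43 to 0.74 between PAT groups, and Tnfrsf13b minus Tnfrsf13c from -1.28 to -0.70 in PAT1 and from 0.38 to 0.96 between PAT groups. The causes were not tested. No paired analysis was possible because the replicate numbers follow sample order only. Of the members, Fcamr and Tnfrsf13c had the fewest counts, as low as 8 and 5.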
